A study of Bos taurus with 12 samples.

Results

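Levels of 10 genes of transcription factors with known roles in trophoblast or other epithelia were described: HAND1, ASCL2, ELF3, ETS2, TFAP2A, GRHL1, DLX5, OVOL1, TEAD3 and KLF5. All probe sets annotated to exactly 1 of these symbols were taken, which gave 14 probe sets for 10 genes, among 24016 probe sets and 9155 named genes on the array. Of the 14 probe sets, 13 passed the filter on low values (above log2 4 on at least 3 arrays). The exception was the dimmer probe set of GRHL1, which stayed below log2 4 on all 12 arrays.

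RNA was measured on Affymetrix bovine genome arrays, 3 per group. SCNT conceptuses grew from blastocysts made by somatic cell nuclear transfer, where a fibroblast nucleus takes the place of the oocyte's own. IVP conceptuses grew from embryos fertilized and cultured in vitro, and AI conceptuses from embryos made in vivo by artificial insemination. All blastocysts were placed in synchronized cows on day 7, and elongated conceptuses of similar length were recovered on day 16. The fourth group, FB, was the fibroblasts that had served as nuclear donors. Whether the 3 arrays of a group are separate animals, pools or cultures is not stated in the labels. The p-values therefore rest on the spread between these arrays, part of which may be technical. Their shared choice by length also limits what the conceptus groups stand for.

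Trophoblast is the outer epithelium of the conceptus and forms its side of the placenta. In ruminants it elongates over the uterine lining before attachment and secretes interferon tau, the signal by which the mother recognizes pregnancy. Its identity rests on transcription factors of several families, among them basic helix-loop-helix (bHLH), ETS, AP-2, grainyhead-like, homeobox, TEA domain and zinc finger proteins. Most of what is known of their placental roles comes from mouse and human.

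Values are the deposited log2 signals. The lowest value was 2.42, and 36.9% of all values lay within 0.01 of it, so levels below about log2 4 were treated as bounds. For a group with a mean under log2 4, array values under 4 were raised to 4 to compute its fold, which is then written as "at least". Per array, 6359 to 6643 probe sets exceeded log2 4, and the number of arrays limits the precision. The mean signal of the 18 spike-in probe sets was 8.57 on IVP 3 and 8.61 on IVP 2 and on AI 2, against 7.69 to 8.08 on the other conceptus arrays and 7.33 to 7.52 on the FB arrays. The log2 signal of the 3′ minus the 5′ GAPDH probe set, a sign of RNA quality, was 0.89 on IVP 3, against 0.21 to 0.51 on the other conceptus arrays and 0.011 to 0.060 on the FB arrays. Of the 3 trophoblast markers on the array, KRT18 and KRT19 were at 12.01 or higher on every conceptus array and at 2.51 or lower on every FB array, while KRT8 stayed below 4 throughout. The epiblast markers POU5F1 and SOX2, and the 5 endometrial markers on the array, stayed below 4 in all groups.

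**Figure D1:**
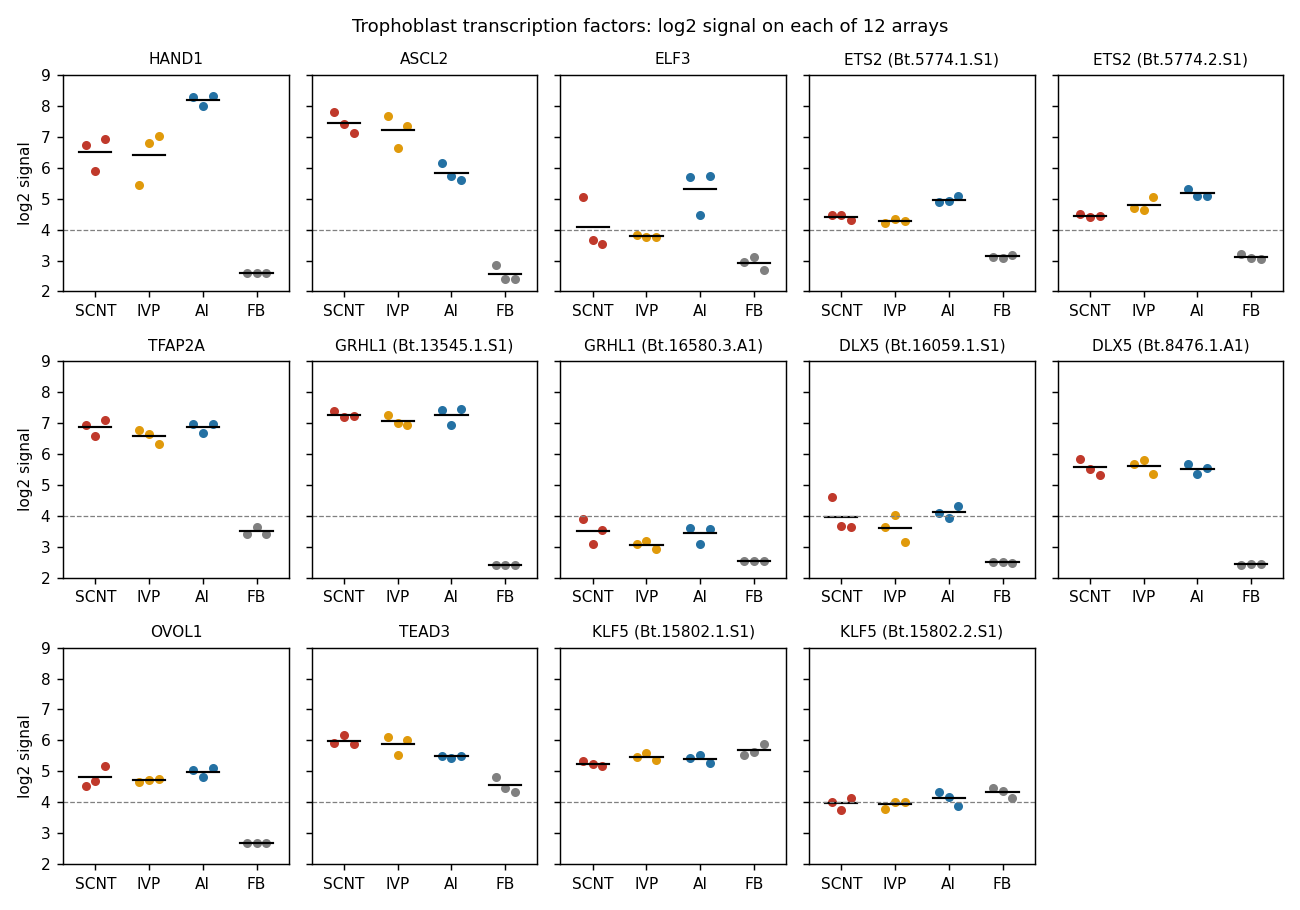
Log2 signal of each of the 14 probe sets on each of the 12 arrays. Points are arrays in the order 1 to 3 within SCNT, IVP, AI and FB, black lines are group means and the dashed line marks log2 4; HAND1 sits highest in AI, ASCL2 sits lowest among conceptuses in AI, and 10 of the 13 tested probe sets lie below 4 on every FB array.

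Between conceptus groups, the changes lay in 5 of the 10 genes. Against AI, ASCL2 and TEAD3 rose in SCNT conceptuses while HAND1, ELF3 and ETS2 fell, and ASCL2 rose in IVP conceptuses while HAND1, ELF3 and ETS2 (on 1 of its probe sets) fell. In the SCNT minus AI comparison, 2 of the 13 tested probe sets were higher and 4 lower at an adjusted p under 0.05 (limma), where 27.6% of all 6892 probe sets tested passed, 16.2% higher and 11.4% lower. The median difference was -0.16 over the members and 0.08 over all probe sets tested. In the IVP minus AI comparison, 1 was higher and 3 were lower, where 17.9% of all passed, 8.42% higher and 9.49% lower. The medians there were -0.27 over the members and 0.02 over all. ELF3, among the lower ones, passed the filter only with its AI arrays.

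The arrays of SCNT and AI did not overlap for 5 of the 13 members, beside 44.3% of all probe sets tested, and those of IVP and AI did not overlap for 7, beside 37.4%. Between SCNT and IVP conceptuses, 0 of the 13 members passed limma's test, where 0.580% of all did. An unadjusted p under 0.05 was found for 1 member, the second probe set of ETS2, beside 876 of all 6892 probe sets tested. The SCNT and IVP arrays did not overlap for 2 members, beside 19.7% of all, and the medians were 0.10 and 0.06. Without a filter on low values, 3 members passed in the SCNT minus AI comparison, beside 984 of all 24016 probe sets. In the IVP minus AI comparison 1 member passed, beside 484 of all.

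**Figure D2:**
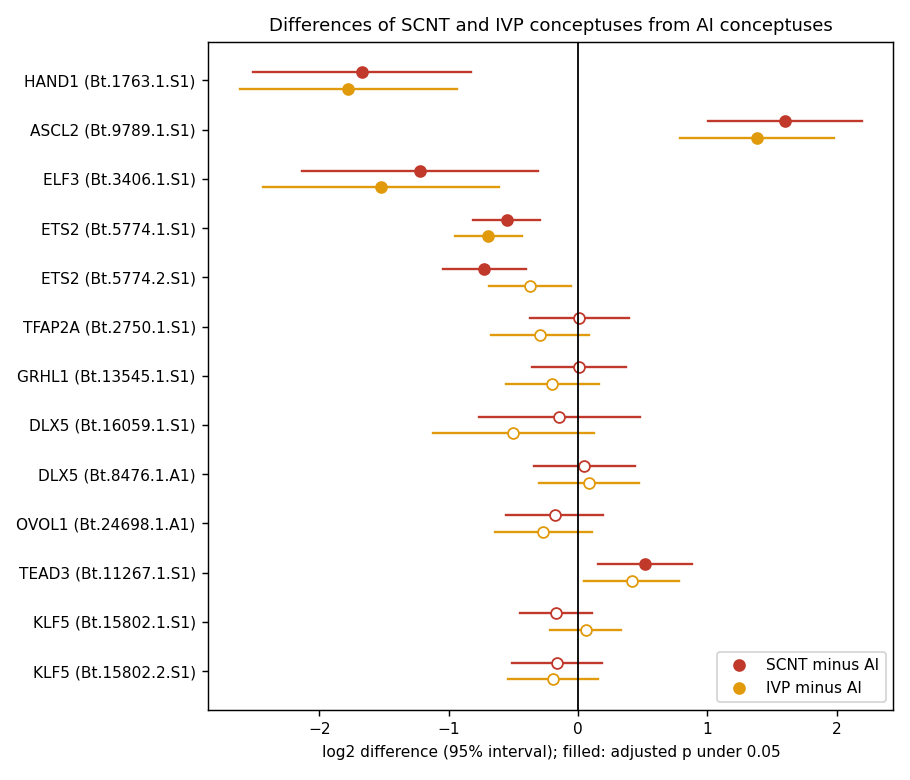
Log2 differences of SCNT (red) and IVP (orange) conceptuses from AI conceptuses for the 13 tested probe sets, with 95% intervals from limma; filled points have an adjusted p under 0.05. HAND1 and ASCL2 stand at -1.67 and 1.60 in SCNT and at -1.78 and 1.38 in IVP, while the points of TFAP2A, GRHL1, OVOL1, DLX5 and KLF5 are open.

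HAND1 is a bHLH factor that mouse embryos need for trophoblast giant cells, and for heart and extraembryonic mesoderm. Its level was 6.75, 5.90 and 6.93 on the SCNT arrays, 5.45, 6.80 and 7.03 on the IVP arrays, 8.28, 8.00 and 8.33 on the AI arrays, and 2.59, 2.59 and 2.60 on the FB arrays. All AI arrays lay above all SCNT and IVP arrays, the SCNT and IVP arrays interleaved, and every conceptus array lay far above the fibroblasts. The lowest conceptus array was IVP 1.

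HAND1 fell in SCNT conceptuses, with a log2 difference from AI of -1.67 (SE 0.38), or 3.19-fold lower (95% interval 1.78 to 5.72, adjusted p = 0.00917, limma). It also fell in IVP conceptuses, by 1.78 on the log2 scale against AI (3.42-fold lower, 1.91 to 6.14, adjusted p = 0.0105, limma). These comparisons share the AI arrays. When AI 2, IVP 2 and IVP 3, the arrays of highest spike-in signal, were left out, IVP rested on IVP 1 alone, and the difference of HAND1 from AI was -2.86 (adjusted p = 0.00698, limma) with the lone array assumed to vary like the other groups. SCNT and IVP conceptuses differed in HAND1 by 0.10 (-0.74 to 0.94, adjusted p = 0.951, limma), so a difference of up to 1.92-fold between them is within the interval.

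ASCL2 is a bHLH factor as well, which mouse embryos need to keep the spongiotrophoblast and its precursors. Its level was 7.80, 7.41 and 7.11 on the SCNT arrays, 7.68, 6.64 and 7.36 on the IVP arrays, 6.17, 5.75 and 5.61 on the AI arrays, and 2.84, 2.42 and 2.42 on the FB arrays. The order was opposite to that of HAND1 among conceptuses: every AI array lay below every SCNT and IVP array, with the narrowest gap between AI 1 and IVP 2. The log2 difference from AI was 1.60 in SCNT conceptuses (SE 0.27, 3.03-fold higher, 2.00 to 4.59, adjusted p = 0.00218, limma) and 1.38 in IVP conceptuses (2.61-fold higher, 1.72 to 3.94, adjusted p = 0.00665, limma). SCNT minus IVP was 0.22 (-0.38 to 0.82, adjusted p = 0.789, limma), a difference that did not exceed the spread between arrays.

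ELF3 and ETS2 belong to the ETS family. ELF3 is an epithelial member, and ETS2 is known to activate the promoter of interferon tau genes in ruminants. The level of ELF3 was 5.06, 3.66 and 3.53 on the SCNT arrays, 3.83, 3.77 and 3.75 on the IVP arrays, 5.72, 4.46 and 5.75 on the AI arrays, and 2.95, 3.11 and 2.70 on the FB arrays. It exceeded log2 4 on all AI arrays and on SCNT 1 only, and SCNT 1 lay above AI 2, so the SCNT and AI groups overlapped while IVP lay wholly below AI.

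ELF3 was lower in SCNT than in AI conceptuses by a log2 difference of -1.23 (adjusted p = 0.0484, limma), a size that rests on SCNT 2 and SCNT 3 reading below log2 4. With values below 4 set to 4 the difference was -0.96 and the call ended (adjusted p = 0.0774), as it did with a trended and robust variance (0.0585), with only SCNT and AI in the fit (0.0759) and without the filter (0.306), by limma. This call also ended without AI 1 (adjusted p = 0.145), AI 3 (0.137), SCNT 2 (0.161) or SCNT 3 (0.155), by limma, with differences between -1.02 and -0.95. Every IVP array of ELF3 read below log2 4, and the gene passed the filter only with its AI arrays, so its direction against IVP was set by the filter. In IVP conceptuses ELF3 was at least 2.48-fold lower than in AI (log2 difference -1.53, adjusted p = 0.0282, limma). That call ended without AI 1 (adjusted p = 0.0937), AI 3 (0.0920), IVP 1 (0.0661), IVP 2 (0.0611) or IVP 3 (0.0695), by limma, with differences between -1.55 and -1.31, and without the filter (0.239) or the 3 arrays of highest spike-in signal (0.0915). SCNT minus IVP was 0.30 (-0.61 to 1.21, adjusted p = 0.819, limma).

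ETS2 had a pair of probe sets, which did not give the same picture for IVP. On the first the levels were 4.47, 4.47 and 4.32 in SCNT, 4.22, 4.33 and 4.28 in IVP, 4.90, 4.94 and 5.08 in AI, and 3.12, 3.10 and 3.19 in FB. On the second they were 4.50, 4.40 and 4.45 in SCNT, 4.69, 4.64 and 5.07 in IVP, 5.33, 5.09 and 5.10 in AI, and 3.21, 3.10 and 3.05 in FB. AI was the highest group on both probe sets without overlap, but IVP 3 came within reach of the AI arrays on the second.

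The fall of ETS2 in SCNT conceptuses passed the test on both, at 1.47-fold lower than AI (1.22 to 1.75, log2 difference -0.55, adjusted p = 0.00665, limma) and 1.65-fold lower (1.33 to 2.06, log2 difference -0.73, adjusted p = 0.00493, limma). In IVP conceptuses the first probe set of ETS2 was 1.62-fold lower than AI (1.35 to 1.94, adjusted p = 0.00327, limma). The second differed by -0.37 (-0.69 to -0.05, adjusted p = 0.101, limma) and passed the test only without IVP 3 (-0.51, adjusted p = 0.0424), the array of highest GAPDH 3′ minus 5′ signal, whose part was not tested. SCNT minus IVP was 0.14 on the first (adjusted p = 0.661) and -0.35 on the second (-0.67 to -0.03, adjusted p = 0.338, limma), so the order of these groups depends on the probe set.

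TEAD3 is a TEA domain factor that works with YAP coactivators and was described in human placenta as a regulator of placental lactogen genes. Its level was 5.92, 6.18 and 5.88 on the SCNT arrays, 6.12, 5.53 and 6.02 on the IVP arrays, 5.48, 5.44 and 5.51 on the AI arrays, and 4.81, 4.47 and 4.34 on the FB arrays. The SCNT and IVP arrays all lay above the AI arrays, IVP 2 by a margin smaller than the spread of its group.

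TEAD3 rose in SCNT conceptuses against AI by 0.52 on the log2 scale (SE 0.17, 1.43-fold higher, 1.11 to 1.84, adjusted p = 0.0401, limma). Leaving out any 1 of SCNT 1, SCNT 2, SCNT 3, AI 1, AI 2 and AI 3 ended this call, with differences from 0.42 to 0.57 and adjusted p from 0.0593 to 0.147 (limma). In IVP conceptuses the difference of TEAD3 from AI was 0.41 (0.05 to 0.78, adjusted p = 0.109, limma), and it passed the test only without IVP 2 (0.59, adjusted p = 0.0247). SCNT minus IVP was 0.10 (-0.26 to 0.47, adjusted p = 0.853, limma).

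The other 5 genes passed the test in none of the comparisons between conceptus groups. TFAP2A, the AP-2 alpha factor of trophoblast and surface ectoderm, had 6.96, 6.60 and 7.12 in SCNT, 6.77, 6.65 and 6.34 in IVP, 6.99, 6.69 and 6.97 in AI, and 3.42, 3.65 and 3.42 in FB. GRHL1, a grainyhead-like factor of epithelial differentiation, had on its brighter probe set 7.40, 7.21 and 7.23 in SCNT, 7.27, 7.01 and 6.93 in IVP, 7.41, 6.95 and 7.45 in AI, and 2.42 on each FB array. Conceptus arrays of all origins overlapped for both genes, and the FB arrays lay far below.

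For TFAP2A the difference from AI was 0.01 in SCNT (-0.37 to 0.39) and -0.29 in IVP (-0.68 to 0.09). For GRHL1 it was 0.01 in SCNT (-0.35 to 0.37) and -0.20 in IVP (-0.56 to 0.16). Changes of up to 1.31-fold in TFAP2A and 1.29-fold in GRHL1 in SCNT conceptuses therefore lie within the intervals. The dimmer GRHL1 probe set read 2.91 to 3.91 on the conceptus arrays and 2.55 on the FB arrays, below the filter.

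OVOL1, a zinc finger factor that in human trophoblast takes part in the change to syncytium, had 4.53, 4.69 and 5.17 in SCNT, 4.66, 4.72 and 4.75 in IVP, 5.02, 4.81 and 5.10 in AI, and 2.67 on each FB array. The IVP arrays lay just below the AI arrays, and the SCNT arrays spanned both. The differences from AI were -0.18 in SCNT (-0.55 to 0.19, adjusted p = 0.458) and -0.27 in IVP (-0.64 to 0.11, adjusted p = 0.296, limma).

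DLX5 is a distal-less homeobox factor of bone and craniofacial development that is also expressed in human placenta. Its brighter probe set had 5.85, 5.52 and 5.33 in SCNT, 5.67, 5.81 and 5.34 in IVP, 5.69, 5.34 and 5.54 in AI, and 2.42, 2.44 and 2.46 in FB. The conceptus groups overlapped fully, with differences from AI of 0.05 in SCNT (-0.34 to 0.44) and 0.08 in IVP (-0.31 to 0.47). Its dimmer probe set exceeded log2 4 on 4 arrays only, SCNT 1, IVP 2, AI 1 and AI 3, and ranged from 3.16 to 4.60 on the conceptus arrays against 2.46 to 2.51 on the FB arrays.

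KLF5, a zinc finger factor that mouse blastocysts need to form trophectoderm, was the exception to the contrast with fibroblasts. Its brighter probe set had 5.34, 5.23 and 5.16 in SCNT, 5.47, 5.59 and 5.35 in IVP, 5.44, 5.51 and 5.28 in AI, and 5.53, 5.63 and 5.89 in FB. Its dimmer one, near log2 4 throughout, averaged 3.96 ± 0.19 in SCNT, 3.92 ± 0.13 in IVP, 4.12 ± 0.24 in AI and 4.32 ± 0.17 in FB (SD, n = 3 each). Both were highest on average in the fibroblasts. Against AI, the brighter probe set differed by -0.17 in SCNT (-0.45 to 0.11) and by 0.06 in IVP (-0.22 to 0.34).

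The members differed in how far arrays of 1 group lay apart. The pooled SD within the conceptus groups was 0.60 for HAND1, 0.65 for ELF3, 0.42 for the dimmer DLX5 probe set and 0.40 for ASCL2, against a median of 0.20 over all probe sets tested, while it was 0.08 for the first ETS2 probe set and 0.11 for the brighter KLF5 probe set. HAND1 and ELF3 stood at the 98.3 and 98.6 percentiles of all probe sets in this spread, so the largest differences were also measured on some of the most variable probe sets. AI 2 was the lowest AI array for 9 of the 13 members, and SCNT 1 was the highest SCNT array for 8.

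Set against the fibroblasts, 9 of the 10 genes were expressed above the FB level in conceptuses of at least 1 origin. In the SCNT minus FB comparison 11 of the 13 members were higher and 2 lower (limma, all 12 arrays), where 79.9% of 8164 probe sets passed, 45.0% higher and 34.8% lower. In the IVP minus FB comparison 10 were higher and 1 lower, where 78.7% passed, 43.0% higher and 35.7% lower. In the AI minus FB comparison 11 were higher and 1 lower, where 77.2% passed, 41.6% higher and 35.6% lower. These counts include the dimmer DLX5 probe set, whose calls all ended with values below log2 4 set to 4 (differences of 0.20 in SCNT, 0.011 in IVP and 0.14 in AI, adjusted p = 0.238, 0.968 and 0.423, limma). For 10 of the 13 every FB array lay below log2 4, so they entered the test through the conceptus arrays alone. The conceptus arrays above log2 4 thus had to be higher than FB. This did not fix the direction of every group, as ELF3 read below log2 4 on every IVP array.

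The distance from FB in these 10 probe sets is a lower bound. HAND1 was at least 5.77-fold above FB in SCNT, at least 5.38-fold in IVP and at least 18.4-fold in AI conceptuses. ASCL2 was at least 10.9-fold, at least 9.35-fold and at least 3.59-fold above FB in SCNT, IVP and AI. The bounds lay between 8.40-fold and 9.70-fold for the brighter GRHL1 probe set, between 6.01-fold and 7.42-fold for TFAP2A, between 2.87-fold and 3.05-fold for the brighter DLX5 probe set, and between 1.64-fold and 1.97-fold for OVOL1.

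ELF3 lay at least 2.48-fold above FB in AI conceptuses and at least 1.06-fold in SCNT (log2 difference 1.16, adjusted p = 0.0174, limma). The SCNT call ended with values below log2 4 set to 4 (difference 0.35, adjusted p = 0.374), without the filter (0.0801), and without SCNT 1 (0.0721) or FB 3 (0.0675), by limma. In IVP conceptuses the log2 difference of ELF3 from FB was 0.86 (-0.01 to 1.73, adjusted p = 0.0644, limma), with both groups below log2 4. TEAD3 was measured above log2 4 in the fibroblasts too, and was 2.74-fold higher in SCNT (2.13 to 3.51), 2.55-fold higher in IVP (1.99 to 3.27) and 1.91-fold higher in AI conceptuses (1.49 to 2.45, adjusted p = 2.19e-04, limma).

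KLF5 was lower in conceptuses than in fibroblasts where it passed the test. On the brighter probe set it was 1.36-fold lower in SCNT (1.14 to 1.62, adjusted p = 0.00379, limma) and 1.21-fold lower in AI (1.01 to 1.44, adjusted p = 0.0477), and it differed by -0.21 in IVP (-0.47 to 0.04, adjusted p = 0.107). The AI call of KLF5 ended without AI 1 (adjusted p = 0.0768), AI 3 (0.160), FB 2 (0.0601) or FB 3 (0.182), and after quantile normalization (0.0546) or centring (0.0707). On the dimmer probe set KLF5 was at least 1.21-fold lower in SCNT (adjusted p = 0.0388) and at least 1.24-fold lower in IVP (adjusted p = 0.0259, limma). Both of these ended without some single arrays, FB 1 among them (adjusted p = 0.134 in SCNT and 0.0981 in IVP), and after quantile normalization (0.0839 and 0.0976).

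HAND1 and ASCL2 bind DNA as dimers with E proteins (TCF3, TCF4 and TCF12), and ID proteins bind E proteins without binding DNA, which limits the supply of partners. Of 7 such genes 6 were on the array and 5 were tested among conceptuses. In SCNT against AI, 2 of the 5 were lower and 0 higher, where 10.5% and 17.7% of 4349 genes were (1 probe set per gene). In IVP against AI, 1 was lower and 0 higher, where 8.14% and 9.47% were. The median difference was -0.17 over the list and 0.10 over all genes in SCNT minus AI, and -0.05 and 0.06 in IVP minus AI.

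ID2 read 7.62, 6.62 and 6.99 on the SCNT arrays, 6.91, 7.04 and 6.91 on the IVP arrays, 7.93, 8.11 and 8.54 on the AI arrays and 5.81, 5.54 and 5.86 on the FB arrays. Every AI array lay above every other conceptus array, the same order of groups as for HAND1. ID2 fell 2.17-fold in SCNT (1.51 to 3.12, adjusted p = 0.00665) and 2.36-fold in IVP conceptuses (1.64 to 3.39, adjusted p = 0.00612, limma) against AI. Without the 3 arrays of highest spike-in signal the IVP difference of ID2 was -1.32 (adjusted p = 0.103), and without the filter both calls of ID2 ended (adjusted p = 0.0837 in SCNT and 0.0884 in IVP, limma).

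ID1 read 5.28, 5.76 and 5.86 on the SCNT arrays, 6.25, 6.43 and 6.78 on the IVP arrays, 6.53, 6.59 and 6.50 on the AI arrays and 3.97, 4.14 and 3.91 on the FB arrays. The SCNT arrays lay below all IVP and AI arrays, which overlapped. ID1 fell 1.87-fold in SCNT against AI (1.42 to 2.47, adjusted p = 0.00514, limma; 0.0556 without the filter), and differed by -0.05 in IVP (-0.45 to 0.35, adjusted p = 0.868). SCNT minus IVP was -0.85 for ID1 (-1.25 to -0.45, adjusted p = 0.0795, limma), and -0.85 with an adjusted p of 0.0228 when all 12 arrays shared the estimate of the spread.

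ID3, TCF3 and TCF12 passed the test in none of the comparisons between conceptus groups. ID3 lay between 4.96 and 5.84, TCF3 between 4.38 and 4.90 and TCF12 between 3.84 and 4.20 on the 9 conceptus arrays. The E protein genes TCF12 and TCF3 were lower in conceptuses than in fibroblasts. TCF12 was 3.57-fold lower in SCNT, at least 3.45-fold in IVP and 3.17-fold in AI, and TCF3 was 1.53-fold, 1.36-fold and 1.52-fold lower in SCNT, IVP and AI. TCF4 read 2.75 to 3.13 on the conceptus arrays and 4.59 to 4.79 on the FB arrays, through which alone it passed the filter, so its direction was fixed by the filter. ID1 and ID2 went the other way, at 3.10-fold and 2.53-fold above FB in SCNT and 5.79-fold and 5.49-fold above FB in AI conceptuses. ID3 did not go with them. It read 5.82, 5.94 and 5.88 in FB, against 4.96, 5.14 and 5.84 in SCNT, 5.56, 5.40 and 5.82 in IVP, and 5.33, 5.66 and 5.38 in AI.

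**Figure D3:**
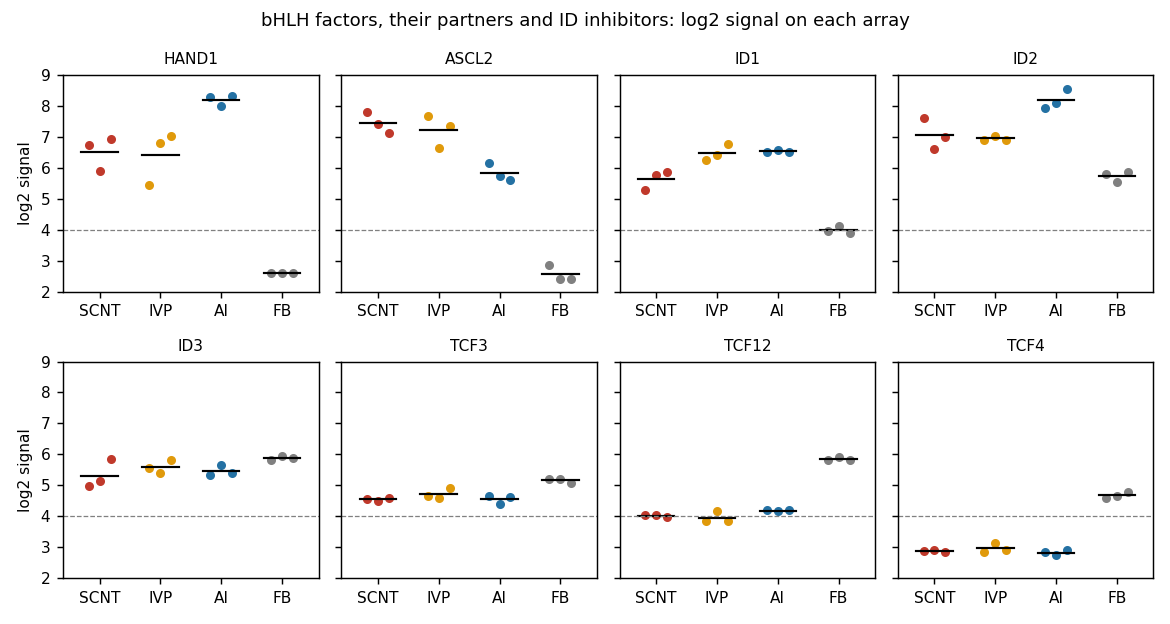
Log2 signal of HAND1, ASCL2 and the tested genes of their ID inhibitors and E protein partners on each array, with group means as black lines and log2 4 dashed. ID2 is highest in AI among conceptuses, ID1 is lowest in SCNT among conceptuses, and TCF12 and TCF4 are highest in FB.

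Of 28 other regulators of the trophoblast lineage, 10 were on the array under these symbols and 3 were tested among conceptuses: RXRA, PPARG and CITED2. RXRA, the retinoid X receptor that pairs with PPARG, fell 2.21-fold in SCNT (1.47 to 3.34, adjusted p = 0.0103) and 2.34-fold in IVP (1.55 to 3.52, adjusted p = 0.0114, limma) against AI. Both RXRA calls ended without the filter (adjusted p = 0.119 in SCNT and 0.129 in IVP), and the IVP call without the 3 arrays of highest spike-in signal (0.0643). It read 5.53, 5.25 and 5.38 in SCNT, 5.57, 5.07 and 5.29 in IVP, and 6.39, 5.99 and 7.22 in AI, without overlap between AI and the other groups. PPARG itself, a nuclear receptor of trophoblast lipid metabolism, differed by -0.07 in SCNT (-0.84 to 0.69) and by -0.53 in IVP (-1.30 to 0.24), and neither passed the test.

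CITED2, a coactivator of AP-2 factors, was 1.37-fold lower in SCNT than in AI (adjusted p = 0.0320, limma), a call that ended without any 1 of SCNT 1, SCNT 2, SCNT 3, AI 1, AI 2 and AI 3 (adjusted p from 0.0569 to 0.0858), and it differed by -0.07 in IVP. KLF4, a factor of the same family as KLF5, read 2.94, 2.92 and 2.85 in SCNT, 3.04, 2.63 and 2.64 in IVP and 2.83, 2.82 and 2.42 in AI, against 8.95, 8.84 and 9.04 in FB. It was at least 30.7-fold lower in each conceptus group than in the fibroblasts, but it passed the filter through the FB arrays alone and had to be lower in conceptuses. ELF5, TEAD4, GCM1, DLX3, DLX4 and FOSL1 were on the array and did not pass the filter.

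Of 19 relatives of the members, 2 were tested among conceptuses, KLF10 and ELF1. KLF13 passed the filter only with the FB arrays, where it read 5.33, 5.36 and 5.31. On the conceptus arrays it lay between 2.87 and 4.50, and below log2 4 on every SCNT and IVP array. Its direction against SCNT and IVP was thus set by the filter. KLF10, a zinc finger factor induced by TGF-beta, fell 1.49-fold in SCNT (1.21 to 1.84, adjusted p = 0.0113) and by 0.58 on the log2 scale in IVP (adjusted p = 0.0159, limma) against AI. The IVP call of KLF10 ended without AI 1 (adjusted p = 0.0597), IVP 3 (0.0568), the filter (0.0589) or the 3 arrays of highest spike-in signal (0.169), by limma. The ETS factor ELF1 was 1.62-fold lower in IVP than in AI (adjusted p = 0.0355), a call that ended without AI 2, AI 3, IVP 1 or IVP 3 (adjusted p up to 0.204 over all settings), and it differed by -0.51 in SCNT (-0.95 to -0.08, adjusted p = 0.0774, limma).

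Secreted products of trophoblast were read beside the members, and whether the members control them was not tested. IFNT2, an interferon tau gene, was at 13.26 ± 0.06 in SCNT, 13.29 ± 0.10 in IVP and 13.25 ± 0.16 in AI (mean ± SD, n = 3 each), and its difference from AI was 0.01 in SCNT (-0.27 to 0.29) and 0.04 in IVP (-0.25 to 0.32). IFNT2 lay near the top of the scale, at 13.09 to 13.42 on conceptus arrays whose highest value of any probe set was 13.43 to 13.66, and whether its probe set was saturated was not tested. Of the 8 secreted products tested, 1 was higher and 2 lower in SCNT against AI, and 1 was higher and 3 lower in IVP against AI, where 17.7% of all genes were higher and 10.5% lower in the SCNT comparison and 9.47% higher and 8.14% lower in the IVP comparison. PAG11, a pregnancy-associated glycoprotein gene, was the higher one in both, at 2.32-fold and 2.09-fold. PAG8, of the same family, was 3.13-fold lower in IVP (1.88 to 5.22, adjusted p = 0.00796, limma). In SCNT it differed by -0.87 (-1.60 to -0.13, adjusted p = 0.0773, limma). PAG2 differed from AI by -0.11 in SCNT and 0.03 in IVP and did not pass the test. The Kunitz-domain protein genes TKDP2 and TKDP4 were lower in both. TKDP1, on its brighter probe set, differed by -0.12 in SCNT and -0.07 in IVP and did not pass. TKDP2 read 10.08 to 11.16 in AI, against 2.77 to 3.32 in SCNT and 2.56 to 3.33 in IVP. TKDP2 thus passed the filter through the AI arrays alone and had to be lower in SCNT and IVP. The fall of TKDP4 in IVP (adjusted p = 0.0483, limma) ended without any 1 of IVP 1, IVP 2, IVP 3, AI 1, AI 2 and AI 3, and with the replicate number as a block (0.0809).

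Markers of other cell types moved with the group in which HAND1, ELF3, ETS2, ID2 and RXRA were highest. The summed linear signal of 5 leukocyte markers was 33.6 to 57.0 in SCNT, 31.0 to 74.5 in IVP, 287 to 662 in AI and 27.1 to 28.2 in FB, carried by ITGB2 and CD48, while PTPRC, CD14 and CD68 stayed below log2 4 on every array. That of 4 erythroid markers was 21.6 to 22.7, 21.9 to 22.8, 84.7 to 248 and 21.4 to 21.6 in the same groups, carried by ALAS2, with HBA, HBB and HBG near the lowest value. Their part in the results on the members was not tested. The 3 mesoderm markers on the array, of a layer where HAND1 is expressed too, stayed below log2 4 on every conceptus array.

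Hypoblast markers summed to 3059 to 3948 in SCNT, 4178 to 4970 in IVP and 3691 to 5199 in AI conceptuses, against 142 to 167 in FB. TTR of that list went the other way, averaging 6.75 in FB and 2.43 in each conceptus group. GATA4, AFP and HNF4A stayed below log2 4 throughout. Fibroblast markers summed to 63.4 to 72.5, 49.5 to 69.0 and 64.5 to 72.4 on the SCNT, IVP and AI arrays, against 9594 to 10588 on the FB arrays. Of these, THY1 went the other way, averaging 5.11 in SCNT, 4.70 in IVP and 5.09 in AI against 3.07 in FB. The hypoblast sum of the conceptuses was carried by APOA1. RBP4, a marker named here after its values were seen, was highest in AI, as HAND1 was. It averaged 5.67 in SCNT and 6.34 in IVP, against 7.16 in AI conceptuses, without overlap. The SCNT arrays of RBP4 also lay below its IVP arrays, whereas those of HAND1 interleaved. In SCNT, IVP and AI, GATA6 averaged 7.68, 7.73 and 7.83, and APOA1 averaged 11.65, 12.07 and 11.94. RBP4 was the 1 of 3 tested hypoblast markers that passed the test in SCNT against AI and in IVP against AI, lower in both. Its part in the results on the members was not tested. In such whole-tissue RNA, fewer cells of a type and less RNA per cell cannot be told apart, which holds for HAND1 and every other member. KRT18 and KRT19 together with KRT8 summed to 12347 to 13830 in SCNT, 12784 to 13990 in IVP, and 9714 to 11853 in AI conceptuses. KRT18 and KRT19 made up nearly all of the sum and did not move alike. KRT18 averaged 13.10 in SCNT, 13.01 in IVP and 12.22 in AI, above KRT19 in SCNT and IVP only. KRT19 averaged 12.12, 12.33 and 12.48, and SCNT and AI arrays lay apart in both genes.

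The genes whose pattern over the 9 conceptus arrays was most like that of a changed member were found by the root mean square (RMS) difference of log2 values, after each probe set's own mean was removed, among 5021 probe sets. The most alike to HAND1 were FABP5, a fatty acid-binding protein gene, at an RMS difference of 0.32, CTSB, the gene of the protease cathepsin B, at 0.34, and LDOC1 at 0.38. FABP5 read 11.00, 10.39 and 10.64 in SCNT, 9.79, 10.67 and 10.62 in IVP and 12.04, 12.17 and 11.97 in AI. As with HAND1, its lowest conceptus array was IVP 1.

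The most alike to ASCL2 were IDH3A, a subunit gene of mitochondrial isocitrate dehydrogenase, at 0.29, TOMM7, of the mitochondrial protein import complex, at 0.30, and MTHFD2, of mitochondrial folate metabolism, at 0.31. IDH3A read 7.98, 8.08 and 7.97 in SCNT, 7.72, 7.54 and 7.81 in IVP and 6.43, 6.48 and 6.30 in AI. The most alike to ELF3 were CXXC5 at 0.36, the transporter gene SLC13A4 at 0.39 and the transcription factor gene NFIL3 at 0.40, and all of these had AI 2 as the lowest AI array.

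The first ETS2 probe set was most like BSG (basigin, a membrane glycoprotein) at 0.06, PABPC1 (a poly(A)-binding protein) at 0.08 and C3H1orf43 at 0.09, and the second most like GLB1 (a lysosomal galactosidase) at 0.10, NECTIN2 (an adhesion protein) at 0.12 and EXOC8 (an exocyst subunit) at 0.13. The most alike to TEAD3 were HPS4 at 0.09, TBRG4 at 0.10 and TMEM250 at 0.11. The pair of ETS2 probe sets thus shared none of their 3 most alike genes. These likenesses describe 9 arrays that share their groups, so genes that separate AI from the other groups come out alike, and no test was made.

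**Figure D4:**
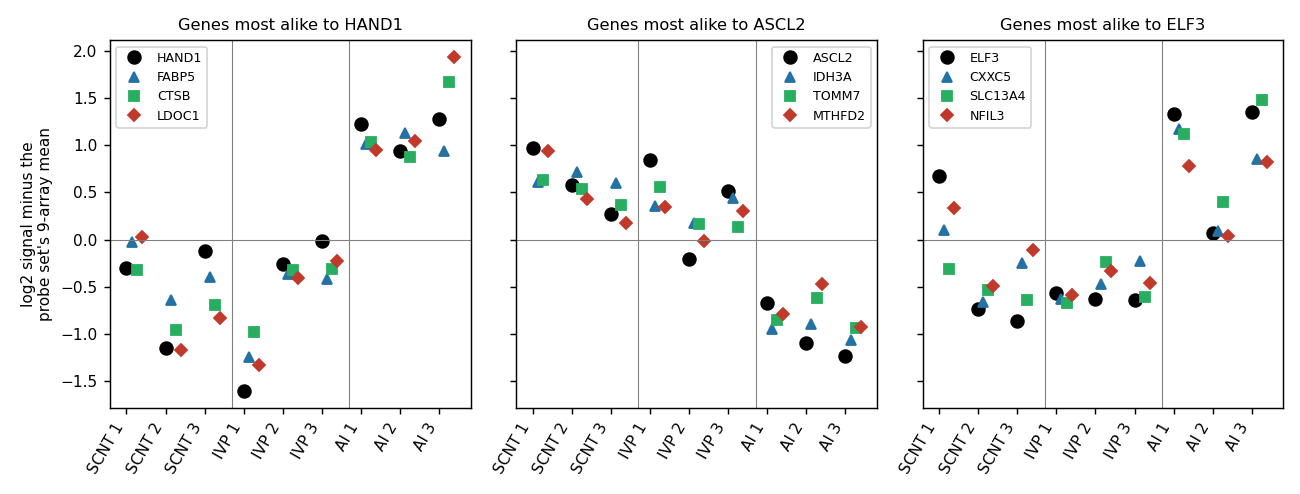
Log2 signal minus each probe set's mean over the 9 conceptus arrays, for HAND1, ASCL2 and ELF3 (black) and the 3 genes most like each (coloured), by array. HAND1 and its most alike genes lie above 0 on the AI arrays and at or below about 0 elsewhere, ASCL2 and its own lie below 0 on the AI arrays, and ELF3 is lowest among AI arrays on AI 2.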

How the data were processed

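Log2 signals were deposited by the authors for 24128 probe sets on 12 arrays. GCRMA and limma are the named tools, per the submitters' processing notes. Tool versions, and whether normalization took in all 12 arrays at once, were not found in the labels. The 112 control probe sets were left out of the tests, and 0 columns were unused. The platform annotation gave 13292 probe sets 1 symbol, 86 several and 10638 none; 13263 matched the ARS-UCD2.0 gene table, used for names only, which changed 0 symbols. Without a genome of the files' build, no coordinates or sequences are shown.

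With limma 3.58.1 in R 4.3.3, the deposited log2 values of probe sets exceeding 4 on 3 or more arrays were fitted, 6892 over the 9 conceptus arrays and 8164 over all 12, with 1 coefficient per group and 6 and 8 residual degrees of freedom. Tests were two-sided with Benjamini-Hochberg adjustment over all probe sets tested, called at an adjusted p under 0.05. Intervals are 95% and errors are SD of arrays where not marked SE. For differences among conceptuses the standard error had a median of 0.16. No array was a copy of another. The procedure was tested on simulated data.

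The members, the 4 gene lists and the 8 marker lists were chosen with earlier results of these data known. All member probe sets are named, with up to 4 called genes per list and comparison. The 3 genes most alike to each changed member are named too. Values of the list genes are shown for some comparisons only, and those against FB are often left out. Genes of lists are represented by their brightest tested probe set. The alternatives were other filters, normalizations, floors, variance models, arrays in the fit, the replicate number as a block, and each array left out in turn; leaving out the 3 arrays of highest spike-in signal was added after seeing the data. Same-numbered arrays of different conceptus groups deviated together with correlations of only -0.15 to 0.15, so the numbers were not taken as pairs.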

Additional observations from a re-analysis of the deposited data

How the results depend on the processing

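Of the 1044 recomputed values of member probe sets, 950 kept direction and side of the threshold, 53 lost and 5 gained a call, and 36 changed sign; of 847 values of named list genes, 794 kept both. Without the filter, 984 probe sets passed in SCNT minus AI (1902 with it, 3 members against 6). There were 484 in IVP minus AI (1234, 1 against 4) and 7 in SCNT minus IVP (40). More probe sets were tested without the filter, and the reason for the lower counts was not tested. HAND1 then missed the threshold in SCNT and IVP against AI (adjusted p = 0.124 and 0.136), as did ASCL2 in IVP (0.0984), ELF3 in both, TEAD3, ID1, CITED2 and TKDP4 in SCNT (0.166, 0.0556, 0.0829 and 0.0724), ID2 and RXRA in both, and KLF10, ELF1, PAG8, PAG11 and TKDP4 in IVP (0.0589, 0.204, 0.116, 0.0536 and 0.274). Leaving out 1 array gave 1190 to 1690 in SCNT minus AI, lowest without SCNT 2, 794 to 1163 in IVP minus AI, lowest without AI 3, and 9 to 33 in SCNT minus IVP, lowest without SCNT 2, with 4 to 5, 3 to 4 and 0 members. With all 12 arrays in the fit SCNT minus IVP had 136. Without the 3 arrays of highest spike-in signal, IVP minus AI had 580 (3 members) and SCNT minus IVP 5. The replicate block gave 1733 (5 members), 1072 (4) and 23 (0) among conceptuses and changed the calls of TEAD3 and CITED2 in SCNT minus AI (adjusted p = 0.0643 and 0.0585), of TKDP4 in IVP minus AI (0.0809), of KLF5 in SCNT and AI minus FB (0.0547 and 0.0705) and of ELF3 in IVP minus FB (0.0486); replicate numbers did not pair the arrays. Of the calls in SCNT minus IVP, 40.0% were higher, 32.3% after quantile normalization and 28.6% after centring. Counts against FB stayed within 1.5 times.

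Sign changes were confined to differences that had not passed the test. In SCNT minus AI, TFAP2A was -0.012, -0.018 and -0.086 under quantile normalization, centring and omission of the spike-high arrays, GRHL1 -0.025, -0.020 and -0.16, the brighter DLX5 probe set -0.043 under that omission, and the dimmer one 0.063 with low values set to 4. Under that omission IVP minus AI was 0.19 for CITED2, and SCNT minus IVP was -0.24 for ASCL2, -0.13 for TEAD3 and -0.18 for RXRA. SCNT minus IVP for the dimmer KLF5 probe set was -0.014 under quantile normalization and -0.012 under centring. Leaving out 1 array gave, in SCNT minus AI, -0.10 to 0.15 for TFAP2A, -0.16 to 0.10 for GRHL1, -0.095 to 0.17 for the brighter and -0.46 to 0.025 for the dimmer DLX5 probe set. In IVP minus AI it gave -0.017 to 0.22 for the brighter DLX5 and -0.0067 to 0.12 for the brighter KLF5 probe set, -0.20 to 0.065 for ID1 and -0.18 to 0.027 for CITED2. In SCNT minus IVP it gave -0.39 to 0.41 for HAND1, -0.19 to 0.58 for ELF3, -0.15 to 0.35 for ID2, -0.18 to 0.082 for the brighter DLX5 probe set, -0.099 to 0.22 for OVOL1, -0.045 to 0.14 for the dimmer KLF5 probe set, -0.076 to 0.45 for ASCL2, -0.078 to 0.22 for TEAD3 and -0.042 to 0.21 for RXRA.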
